A study of Mus musculus with 8 samples.

Results

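Transcripts of *Nfkb1*, *Nfkb2*, *Rel* and *Rela*, the NF-kB subunit genes read by a quantitative PCR plate of the Toll-like receptor (TLR) pathway, were followed in mouse spleen. They are 4 of the 84 pathway genes on the plate and were chosen by name. *Nfkb1* (Mm.256765) lay in well E01, *Nfkb2* (Mm.102365) in E02, *Rel* (Mm.4869) in F01 and *Rela* (Mm.249966) in F02. Each was detected in every column of the deposited tables.

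C57BL/6 wild-type mice, mice labelled TLR7-/- and mice labelled IFNAR-/- (lacking the type I interferon receptor) received R848 at 1 mg per kg per day or PBS (Mock), and whole spleens were taken after 7 days. R848 (resiquimod) is a small-molecule agonist of TLR7, an endosomal receptor for single-stranded RNA. The series holds 8 samples in 6 groups, each made of RNA pooled from 3 mice. Wild type was sampled in 2 experiments per treatment, of which the deposited table used here gives the mean. The deficient strains have a single sample per treatment. The background strain, the age and the construction of the deficient mice are not given in the sources used here. The TLR7-/- label could not be checked on the plate. The delta-Ct of *Tlr7* was 9.20 in Mock and 9.33 in R848 of that strain against 12 in wild-type Mock, but the place of the PCR product relative to the deletion is not given. No interferon receptor gene was on the plate.

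NF-kB is a family of dimeric transcription factors. In the canonical route, which TLR7 reaches through the adaptor MyD88 and the IKK kinases, dimers of RelA (p65, from *Rela*) or c-Rel (from *Rel*) with p50 (processed from the p105 product of *Nfkb1*) are freed from inhibitory IkB proteins. In the non-canonical route, the p100 product of *Nfkb2* is processed to p52, and p100 itself holds dimers inactive. *Nfkb1*, *Nfkb2* and *Rel* are textbook NF-kB targets themselves, c-Rel is most abundant in lymphoid and myeloid cells, and RelA is made in nearly all cells. These statements concern proteins as much as transcripts, and only transcripts were measured here.

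To show where NF-kB itself could meet these genes, promoter windows from RefSeq (GRCm38.p6, the 250 bases before each annotated start) were searched on both strands for the kappaB consensus. Windows existed for 3 of the 4 genes, namely *Nfkb2*, *Rel* and *Rela*. The *Nfkb2* window of its most upstream listed start held 3 matches, whose first bases lay 39, 38 and 11 bases before that start and of which the first pair overlap. The *Rel* window held 2 overlapping matches, at 92 and 91 bases before its start. The stretches below run 5′ to 3′ on the gene's own strand, with the matched bases in capitals. They come from chr19:46304673-46304736 (plus strand) and chr11:23771026-23771086 (minus strand).
Nfkb2: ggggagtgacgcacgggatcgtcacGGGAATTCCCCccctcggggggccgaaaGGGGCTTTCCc
Rel: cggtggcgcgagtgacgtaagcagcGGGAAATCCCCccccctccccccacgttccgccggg
The other *Nfkb2* windows held 1 match each, at 236 and 225 bases before their starts. The *Rela* window held none, which says only that these letters are not in that window. The consensus occurred in 1281 of 32851 RefSeq windows (3.90%) and in 17 of the 85 windows of the plate's pathway genes (20.0%, from 69 genes with a window). A match is a description of sequence, and no binding was measured.

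Levels are delta-Ct values, in cycles: from the Ct of a gene the mean of *Hprt1*, *Hsp90ab1* and *Gapdh* is subtracted, so a higher delta-Ct means less transcript and 1 cycle is 2-fold. A response is a log2 ratio, obtained by subtracting the R848 delta-Ct from the Mock delta-Ct. With 1 value per group no difference was tested, no value carries an SD, and "higher" or "lower" refers to the pooled samples as read. In whole spleen, fewer cells of a type and less RNA per cell cannot be told apart. Readings above 35 cycles were set to 35, and no subunit gene stood at that cap in any column. The nearest was *Rel* in IFNAR-/- Mock, whose Ct of 31.7 lay 3.3 cycles below it. Readings stood on steps of 0.05 cycles in wild type and 0.1 cycles in the deficient strains, and the error of a single reading is unknown. The mean reference Ct differed between columns. It was 21.85 in wild-type Mock, at most 18.33 in wild-type R848, 19.9 and 19.37 in TLR7-/- Mock and R848, and 22.57 and 20.07 in IFNAR-/- Mock and R848.

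*Nfkb1*, the p105/p50 gene, was the subunit gene with the widest span. In wild type it read a delta-Ct of 7.45 with Mock and 5.12 with R848. It was 5.50 and 4.73 in TLR7-/- Mock and R848, and 8.43 and 4.73 in IFNAR-/- Mock and R848. The R848 columns therefore lay within 0.39 cycles of each other, while the Mock columns spanned 2.93 cycles, with IFNAR-/- lowest and TLR7-/- highest in transcript. Among the 84 genes, its place by level moved from 42 in Mock to 26 in R848 in wild type, from 34 to 27 in TLR7-/-, and from 45 to 25 in IFNAR-/-.

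*Nfkb2*, the p100/p52 gene, had in wild type a delta-Ct of 4.90 with Mock and 5.37 with R848. It was 3.90 and 3.63 in TLR7-/- Mock and R848, and 6.03 and 4.13 in IFNAR-/- Mock and R848. Wild type was thus the strain in which the R848 reading was the lower in transcript of its pair, and the place by level went from 21 to 32 there. It went from 16 to 15 in TLR7-/- and from 21 to 18 in IFNAR-/-.

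*Rel*, the c-Rel gene, had in wild type a delta-Ct of 9.0 with Mock and 8.47 with R848. It was 7.10 and 7.13 in TLR7-/- Mock and R848, and 9.13 and 8.33 in IFNAR-/- Mock and R848. Both TLR7-/- columns held more *Rel* transcript than any other column, and its pair differed by less than a reading step. Its place by level went from 56 to 60, from 51 to 52 and from 52 to 60 in wild type, TLR7-/- and IFNAR-/-.

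*Rela*, the p65 gene, had in wild type a delta-Ct of 4.85 with Mock and 4.47 with R848. It was 4.20 and 3.83 in TLR7-/- Mock and R848, and 6.53 and 4.33 in IFNAR-/- Mock and R848. IFNAR-/- Mock stood apart from the other columns, which lay between 3.83 and 4.85. Its place by level stayed between 18 and 26 in all 6 columns.

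**Figure D1:**
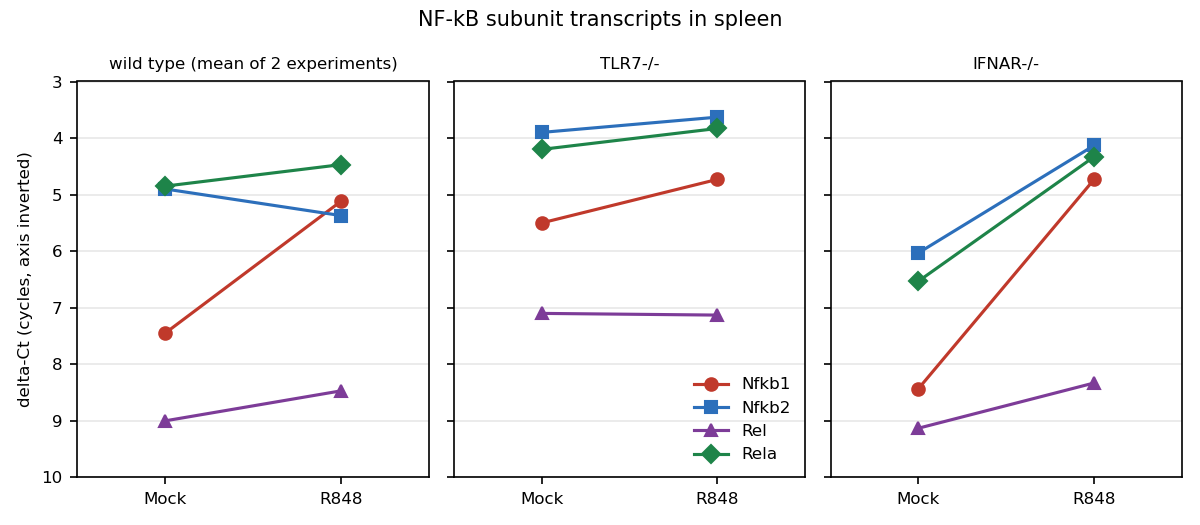
Delta-Ct (cycles, axis inverted so that more transcript is higher) of the 4 subunit genes in Mock and R848 for wild type, TLR7-/- and IFNAR-/-, each point being 1 value without replicate error and lines joining the pair of a strain. *Nfkb1* climbs most in wild type (7.45 to 5.12) and IFNAR-/- (8.43 to 4.73), and *Rel* lies lowest in every column.

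Over the strains, the range of delta-Ct was wider in Mock than in R848 for each of the 4 genes. It was 2.93 against 0.39 cycles for *Nfkb1*, 2.33 against 0.64 for *Rela*, 2.13 against 1.74 for *Nfkb2* and 2.03 against 1.34 for *Rel*. A wider Mock range was the common case on the plate, found in 50 of the 69 genes at the cap in no column (72.5%), whose median ranges were 1.73 in Mock and 1.14 in R848. The summed signal of the 4 genes, as a percentage of the reference level, was 7.58% in wild-type Mock, 15.1% in TLR7-/- Mock and 3.08% in IFNAR-/- Mock. In R848 it was 10.1%, 19.6% and 14.8% in the same order of strains. Among the Mock columns the sum was lower the later the reference genes crossed the threshold. The R848 columns did not follow that order, as wild type had the earliest reference Ct (at most 18.33) and the lowest sum. The part of the reference Ct in the result was not tested.

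The comparison of R848 with Mock in wild type addressed what sustained TLR7 stimulation does to these genes. *Nfkb1* was 5.03-fold higher with R848 (log2 2.33). *Rel* was 1.44-fold higher (log2 0.53), *Rela* 1.3-fold higher (log2 0.38) and *Nfkb2* 1.39-fold lower (log2 -0.47). So 1 of the 4 genes was at least 2-fold higher and 0 were 2-fold lower. On the whole plate 32 of 84 genes passed 2-fold upward (38.1%) and 11 downward (13.1%), so the share of the subunit genes that was higher did not exceed that of the plate. By signed response *Nfkb1* ranked 13 from the highest of 77 measured genes, *Rel* 37, *Rela* 42 and *Nfkb2* 59. The median response of the 4 genes was 0.45, beside 0.41 for all 84 genes. With *Gusb* alone as reference the *Nfkb1* response was 0.45 and the other 3 genes were at least 2-fold lower. On that scale the whole plate held 44 of 84 genes lower and 7 higher. With TLR7-/- Mock in place of wild-type Mock the *Nfkb1* response was 0.38. Of the reference genes, *Hsp90ab1* was itself lower with R848 (log2 -0.52), and with it alone *Nfkb2* read 0.05.

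In the pair labelled TLR7-/-, *Nfkb1* was 1.71-fold higher with R848 (log2 0.77), *Rela* 1.29-fold (log2 0.37) and *Nfkb2* 1.21-fold (log2 0.27). *Rel* was level, with a log2 ratio of -0.03. Thus 0 of 4 passed 2-fold in either direction, where 4.76% of the plate passed upward and 3.57% downward. The median absolute response of the measured genes was 0.27 in this pair, against 1.18 in wild type and 1.40 in IFNAR-/-. *Nfkb1*, at rank 7 of 78 measured genes, lay above that median, and *Rela* was tied at rank 15. At 1.5-fold, *Nfkb1* was the subunit gene that counted as higher, among 10 of the 84 genes on the plate.

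In IFNAR-/- mice, *Nfkb1* was 13.0-fold higher with R848 (log2 3.70), *Rela* 4.59-fold (log2 2.20) and *Nfkb2* 3.73-fold (log2 1.90). *Rel* was 1.74-fold higher (log2 0.80). So 3 of the 4 were at least 2-fold higher and 0 lower, while 45 of 84 genes (53.6%) passed 2-fold upward and 2.38% downward. *Nfkb1* ranked 5 of 69 measured genes, *Rela* 21, *Nfkb2* 29 and *Rel* 45. The median of the 4 responses was 2.05, beside 1.25 for all genes. These responses rest on the IFNAR-/- Mock column, which held the least *Nfkb1*, *Nfkb2*, *Rel* and *Rela* transcript of the 6 columns and the latest reference Ct. Set against TLR7-/- Mock, the IFNAR-/- R848 column gave 0.77 for *Nfkb1*, -0.13 for *Rela*, -0.23 for *Nfkb2* and -1.23 for *Rel*, and the 3 higher calls were lost. With that control the plate held 6 of 84 genes higher and 8 lower.

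**Figure D2:**
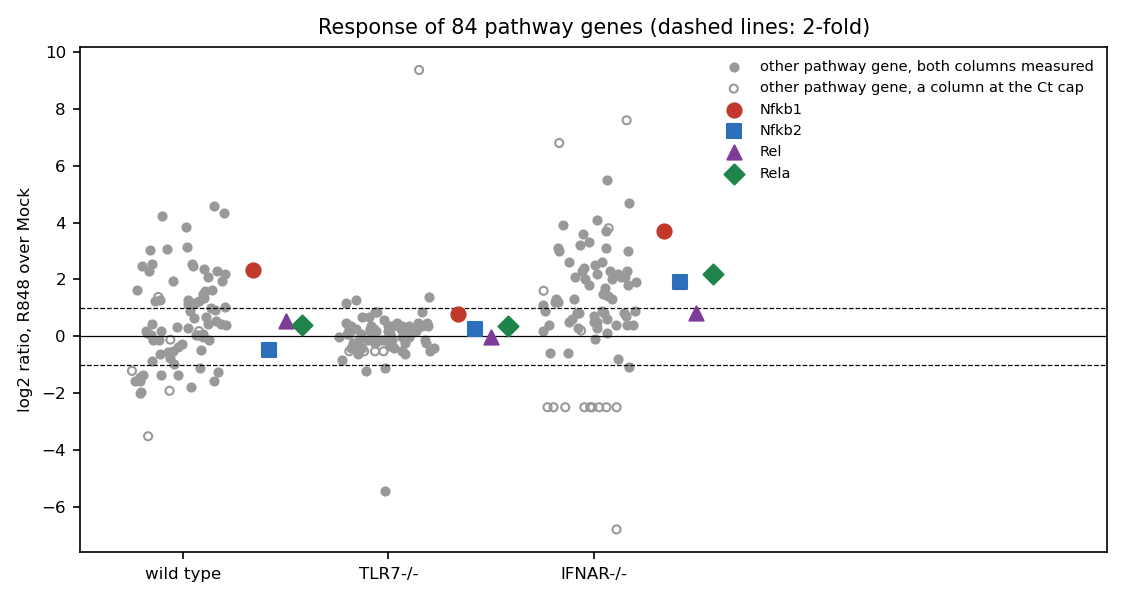
Log2 ratio of R848 over Mock for the 84 pathway genes in each strain; grey points are the other genes (hollow where a column stood at the Ct cap, so that the size is a bound or the direction is not known), coloured symbols the subunit genes, dashed lines 2-fold. *Nfkb1* lies at 2.33, 0.77 and 3.70 in wild type, TLR7-/- and IFNAR-/-, toward the upper part of each cloud, and *Rel* at 0.53, -0.03 and 0.80 near the middle or below it.

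The reference genes set the zero of these responses. *Actb* responded by 0.63, 0.07 and 1.60 and *Gusb* by 1.88, 0.47 and 1.5 in wild type, TLR7-/- and IFNAR-/-, relative to the 3 reference genes. With all 5 housekeeping genes as reference every response moved by -0.50, -0.11 and -0.62. The plate then held 22 genes higher and 17 lower in wild type and 36 higher and 5 lower in IFNAR-/-, beside 32 and 11 and 45 and 2 before. *Nfkb1* read 1.83 in wild type and 3.08 in IFNAR-/- on that scale, *Nfkb2* -0.97 and 1.28, *Rela* -0.12 and 1.58, and *Rel* 0.03 and 0.18. The directions of *Nfkb2*, *Rel* and *Rela* in wild type changed with the scaling, as did those of *Nfkb2*, *Rel* and *Rela* in TLR7-/- and of *Nfkb2* and *Rel* in IFNAR-/-. *Nfkb1* stayed above 0 in all 3 strains under each of the 8 other scalings, from 0.45 to 2.85 in wild type, 0.30 to 0.90 in TLR7-/- and 1.65 to 4.10 in IFNAR-/-.

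**Figure D3:**
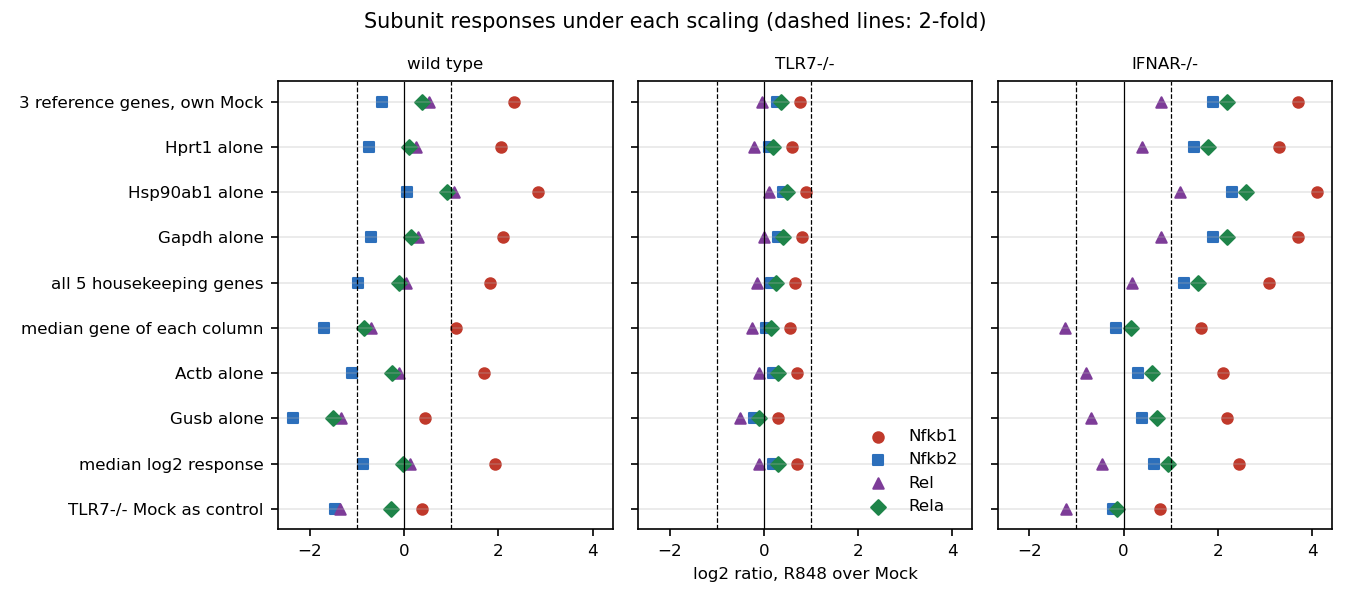
Log2 ratio of R848 over Mock (horizontal axis) of each subunit gene under each scaling or control (vertical axis), by strain; dashed lines mark 2-fold, and the last setting does not apply to TLR7-/-. Within a strain a change of reference slides all 4 symbols by one amount, so *Nfkb1* stays to the right of the other 3. The TLR7-/- Mock control moves each gene by its own amount, and *Nfkb1* lies furthest right there too. The *Nfkb1* value in wild type runs from 0.38 with that control to 2.85 with *Hsp90ab1* alone.

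Differences between genes of 1 column do not depend on the reference genes, since the reference Ct cancels. Levels of different genes are still nominal, because primer efficiencies are unknown. *Rel* read lowest of the 4 in all 6 columns, by 0.7 to 3.6 cycles below the next gene. *Nfkb2* and *Rela* were the top pair in 5 columns, 0.05 to 0.50 cycles apart, which is under the 1 cycle taken as separating neighbours. In wild-type R848 the order was *Rela*, *Nfkb1*, *Nfkb2*, *Rel*, with gaps of 0.65, 0.25 and 3.10 cycles, so the top 3 genes were not separated there. *Nfkb1* lay at least 1 cycle below the gene above it in every Mock column, by 2.55 cycles in wild type, 1.3 in TLR7-/- and 1.9 in IFNAR-/-, and less than 1 cycle below it in every R848 column.

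Canonical and non-canonical subunits were compared in the same way. The non-canonical side was 1 gene, *Nfkb2*, against 3 canonical genes, so this is a contrast of single genes and not of the 2 routes. *Nfkb1* read 2.55 cycles later than *Nfkb2* in Mock and 0.25 cycles earlier in R848 of wild type, a difference in response of 2.80 log2 units. The gap went from 1.60 to 1.10 cycles in TLR7-/- (0.50 log2 units) and from 2.40 to 0.60 cycles in IFNAR-/- (1.80 log2 units). *Nfkb1* exceeded *Nfkb2* in response in each strain, whichever reference was used. *Rela* exceeded *Nfkb2* by 0.85, 0.10 and 0.30 log2 units in wild type, TLR7-/- and IFNAR-/-. *Rel* exceeded *Nfkb2* by 1.00 in wild type and was below it by -0.30 in TLR7-/- and -1.10 in IFNAR-/-. The canonical genes thus did not share 1 direction against *Nfkb2*. *Nfkb1* and *Rela*, partners in the classical dimer, differed in response by 1.95, 0.40 and 1.5 log2 units, with *Nfkb1* the larger each time.

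As shares of the summed signal of the 4 genes, *Nfkb1* went from 7.54% in wild-type Mock to 28.5% in R848, from 14.7% to 19.2% in TLR7-/- and from 9.41% to 25.5% in IFNAR-/-. *Nfkb2* went from 44.2% to 24.0%, from 44.4% to 41.2% and from 49.7% to 38.7%. *Rela* kept close to its Mock share in each strain, at 45.7% and 44.7% in wild type, 36.1% and 35.9% in TLR7-/- and 35.1% and 33.7% in IFNAR-/-. *Rel* made up 2.11% to 5.79% of the sum.

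**Figure D4:**
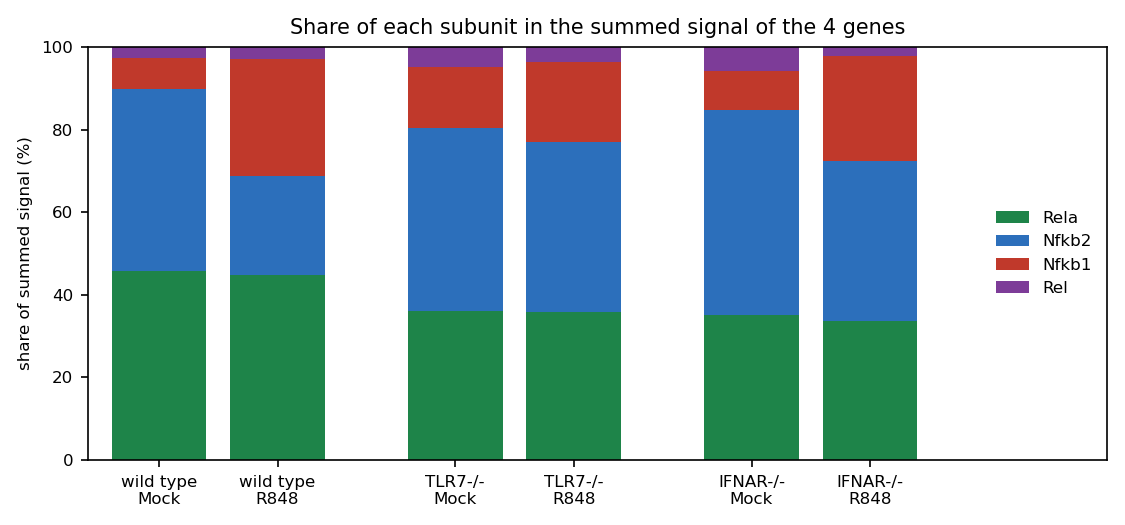
Share of each subunit gene in the summed signal (2 to the minus delta-Ct) of the 4 genes, in percent, for each of the 6 columns; bars stack to 100% and rest on 1 value per gene with no error and unequal primer efficiencies not corrected. The *Nfkb1* share is larger in R848 than in Mock in each strain, and the *Rela* share differs little within a strain.

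The strains were compared by their responses. The contrasts with TLR7-/- share its values and are not independent of each other. The wild-type response exceeded the TLR7-/- response by 1.56 log2 units for *Nfkb1*, 0.56 for *Rel* and 0.01 for *Rela*, and was below it for *Nfkb2* (-0.74). So 1 of 4 genes was at least 1 log2 unit higher in wild type, where 26 of 75 genes (34.7%) were. The IFNAR-/- response exceeded the TLR7-/- response by 2.93 for *Nfkb1*, 1.83 for *Rela*, 1.63 for *Nfkb2* and 0.83 for *Rel*, 3 of 4 at 1 log2 unit beside 62.3% of 69 genes. The IFNAR-/- response exceeded that of wild type by 2.37 for *Nfkb2*, 1.82 for *Rela*, 1.37 for *Nfkb1* and 0.27 for *Rel*, again 3 of 4, beside 44.9% of 69 genes. On the main scaling *Rel* was the subunit gene whose response differed least between wild type and IFNAR-/-, and *Nfkb2* the one that differed most. The median difference of the 69 genes was 0.82, above that of *Rel*. Centring each strain on its median log2 response left 1 of 4 genes at least 1 log2 unit higher in each of these contrasts, and 1 of 4 at least as much lower in the first. Centring shifts every plate gene alike within a contrast, and the plate-wide shares were not counted on that scale. The fall in the count is therefore not read as particular to the subunit genes. So centred, *Rel* read 0.12 in wild type and -0.45 in IFNAR-/-, and *Nfkb1* 1.92 and 2.45. On that scale *Nfkb1* and *Rel* differed least between these strains, in opposite directions and by sizes less than a reading step apart.

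A chosen list of 7 plate genes, taken here as NF-kB regulators, was mixed. In wild type 1 of 7 was at least 2-fold higher, *Tnfaip3*, the deubiquitinase A20 (log2 2.08), and 1 was lower, *Nfkbia*, the gene of the inhibitor IkB-alpha (log2 -1.57). In TLR7-/- 0 of 7 passed in either direction, from -0.43 for *Nfkbia* to 0.87 for *Tnfaip3*. In IFNAR-/- 3 of 7 were higher, namely *Tnfaip3* (2.5), the kinase gene *Ikbkb* (2.00) and the IkB-beta gene *Nfkbib* (1.3), and *Nfkbil1* was the lowest at -0.60. The medians of the list were 0.13, -0.13 and 0.80, below the medians of all genes. Of 10 genes on the route from receptor to IKK, 4 were higher and 1 lower in wild type, 0 in either direction in TLR7-/-, and 6 higher and 0 lower in IFNAR-/-. *Irak1* stood at the cap in Mock of each strain, with its direction not known. In wild type the ends were *Traf6*, a ubiquitin ligase (3.03), and *Ripk2*, a kinase of the NOD receptors (-1.77). In IFNAR-/- they were *Tirap*, an adaptor (3.30), and *Map3k7*, the kinase TAK1, tied with *Ripk2* (0.50). The medians were 0.96, 0.17 and 1.35.

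Of 11 textbook NF-kB target genes, 2 were at least 2-fold higher in wild type and 4 lower, with the direction of *Ptgs2* not known. *Tnfaip3* was the highest (2.08) and *Cd80*, a co-stimulatory ligand, the lowest (-1.97). In TLR7-/- 1 was higher and 1 lower, *Ptgs2* (1.17) and *Ccl2* (-5.43). In IFNAR-/- 7 were higher and 0 lower, with *Ccl2*, a monocyte chemoattractant, at least 111-fold higher. *Ccl2* belongs to the first 4 wells of the plate, whose readings stood apart between columns. No subunit gene lies in those wells. The list medians were -0.12, 0.07 and 1.40. On the main scaling the 2-fold counts of these lists are read beside the same plate-wide shares as above. Both the list counts and the plate-wide counts moved with the reference genes. Over the 8 other scalings the genes counted as higher in IFNAR-/- ran from 0 to 5 of the regulators, 2 to 7 of the route and 4 to 9 of the targets. With *Gusb* alone, 0 regulators, 1 route gene and 0 targets were higher in wild type and 6, 3 and 8 were lower.

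Marker lists of other cells are given beside the responses. The plate holds no defining lineage marker of spleen, so the labelled tissue could not be checked. The summed level of the 6 monocyte, macrophage and neutrophil genes, as a percentage of the reference, went from 16.4% to 28.3% in wild type, from 30.0% to 28.7% in TLR7-/- and from 14.0% to 36.7% in IFNAR-/-. *Pglyrp1*, a peptidoglycan-recognition protein, made up 68.3% to 81.6% of that sum. *Cd14*, of the first wells, stood at the cap in TLR7-/- Mock and in IFNAR-/- R848, where it was at least 111-fold lower than in Mock while 4 of the 6 genes were at least 2-fold higher. *Csf3* stood at the cap in Mock of each strain and in R848 of both deficient strains. The 3 B cell-associated genes on the plate went from 27.8% to 17.1%, from 23.4% to 19.3% and from 12.3% to 19.2%, with *Btk* at the cap in both deficient strains. The 3 T and NK cell product genes went from 1.22% to 0.531%, from 2.02% to 2.08% and from 0.637% to 0.762%. *Ly86* made up 51.7% to 77.4% of the B cell sum and *Lta* 76.1% to 90.6% of the T and NK sum. On the main scaling the myeloid sum thus stood higher with R848 in wild type and IFNAR-/-, where *Nfkb1* was at least 2-fold higher. The B cell and the T and NK sums were lower in wild type and higher in IFNAR-/-. In IFNAR-/- the median response of the genes of known direction was 0.65 in each of these 2 lists, beside 1.25 for all genes. *Lta* responded by 0.10 there, and all 5 housekeeping genes as reference moved every response by -0.62. The part of these sums in the result was not tested. Without the first wells the myeloid sums were 15.0% and 25.2%, 30.0% and 26.8%, and 13.6% and 36.7%.

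The genes with the most similar pattern were taken by the root mean square distance between delta-Ct profiles over the 6 columns, each centred on its mean, among the 68 other genes at the cap in no column. For *Nfkb1* they were *Tirap* (0.14 cycles), *Tnfaip3* (0.39) and *Myd88*, the adaptor of TLR7 (0.40), against a median distance of 1.04. *Tirap* responded by 2.38, 0.67 and 3.30 in wild type, TLR7-/- and IFNAR-/-, each within 0.40 log2 units of *Nfkb1*. For *Nfkb2* they were *Elk1*, a transcription factor (0.26), *Nfkbib* (0.31) and the kinase gene *Irak2* (0.38), with a median of 0.78. For *Rel* they were *Ube2v1*, a ubiquitin-conjugating enzyme variant (0.30), *Ifng*, interferon gamma (0.37), and *Il1b*, interleukin 1 beta (0.41), with a median of 0.79. For *Rela* they were *Il1r1*, the interleukin 1 receptor (0.16), *Irak2* (0.30) and *Tlr9*, a receptor for DNA (0.34), with a median of 0.76. Among the subunit genes themselves, *Nfkb2* lay 0.45 cycles from *Rela* and 0.46 from *Rel*, *Rel* 0.60 from *Rela*, and *Nfkb1* 0.76 from *Rela*, 0.98 from *Nfkb2* and 1.03 from *Rel*. These distances rest on 6 columns that share their reference genes, and they are descriptions only.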

How the data were processed

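Whole-spleen RNA was read on an RT² Profiler PCR plate, and RNA of 3 mice was pooled per sample, per the labels' protocols. The deposited delta-Ct values are on a log2 scale, in cycles, and were normalized by the authors to *Hprt1*, *Hsp90ab1* and *Gapdh*, with Ct above 35 or blank set to 35. The deposited fold differences are the authors' ratio of R848 over Mock. Recomputing them from delta-Ct gave the same fold, to 0.01 cycles or a fold of 0.005, for all 89 genes of every table. All 6 delta-Ct columns were used, and another 6 columns of per-sample values were not. The wild-type columns are means of 2 experiments, so no test was run and no p-value is given.

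A gene counted at 2-fold, a response difference at 1 log2 unit. A gene capped in a column counted only where the cap leaves a bound. Ranks of response are by signed log2 ratio, from the highest, over genes measured in both columns. Always named were the 4 subunit genes. From the regulator, route and target lists the highest and lowest member of known direction per strain were named, and 3 genes per subunit by profile distance. *Ikbkb*, *Nfkbib* and *Irak1* were named after their values were seen. The members and lists were chosen with earlier results of these data known. Alternatives were 8 other scalings, other thresholds, filters on late readings and TLR7-/- Mock as control. Python 3.11.15, pandas 2.3.3, numpy 2.4.6 and matplotlib 3.10.9 were used. Symbols are those of the files, and promoter windows are from RefSeq, GRCm38.p6.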

Additional observations from a re-analysis of the deposited data

Results flagged for a closer look

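*Nfkb2* had responses of opposite sign in wild type and the deficient strains. *Rel* had a sign below 0 in TLR7-/- alone, at a value under the reading step of 0.1 cycles, so that no direction was read there. None of these differences between strains was tested, since each group has 1 value and the wild-type value is a mean of 2 experiments. The *Nfkb2* response was -0.47 in wild type against 0.27 in TLR7-/-, a difference of 0.74 log2 units. Against 1.90 in IFNAR-/-, the difference was 2.37. The *Rel* response was 0.53 in wild type against -0.03 in TLR7-/-, which TLR7-/- minus wild type gives as -0.56. The *Rel* response in IFNAR-/- was 0.80, which is 0.83 above that in TLR7-/-. Several of these signs turn with the reference genes: *Nfkb2* read 0.05 in wild type with *Hsp90ab1* alone, and *Rel* read -0.10 there with *Actb* alone.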

How the results depend on the processing

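No paired analysis was possible because the wild-type experiments, the only groups with shared replicate numbers, are given as their mean; leaving out each experiment was not run for the same reason. The *Nfkb1* minus *Nfkb2* response and the order of levels in each column were the same under every scaling run, as their construction requires. The other counts moved. In wild type, where 1 subunit gene passed 2-fold, 2 did with *Hsp90ab1* alone (both higher), with centring on the median gene of each column or with *Actb* alone (1 higher and 1 lower each), 3 with *Gusb* alone (all lower), and 2 with TLR7-/- Mock as control (both lower). The wild-type plate moved too, with 39 of 84 genes higher and 5 lower with *Hsp90ab1* alone. It held 15 higher and 32 lower with the median gene of each column, and 21 and 20 with *Actb* alone. With *Gusb* alone it held 7 and 44, and with TLR7-/- Mock as control 15 and 26. In TLR7-/- the subunit count was 1 at 1.5-fold, where the plate held 10 higher and 6 lower. In IFNAR-/-, where 3 were higher, 1 was higher with *Actb* alone, *Gusb* alone or centring on the median log2 response, 1 was higher and 1 lower with the median gene of each column, and 1 was lower with TLR7-/- Mock as control. The IFNAR-/- plate held 18 genes higher and 19 lower with *Actb* alone, and 19 and 17 with *Gusb* alone. It held 23 and 8 with the median log2 response, and 14 and 29 with the median gene of each column. With TLR7-/- Mock as control it held 6 and 8. In IFNAR-/- *Nfkb2* turned to -0.15 with the median gene of each column and -0.23 with TLR7-/- Mock, and *Rela* to -0.13 with the latter. Of responses differing by 1 log2 unit, wild type minus TLR7-/- held 1, and 2 with *Gapdh* alone, all 5 housekeeping genes, *Actb* alone or the median log2 response (1 each way), and 2, both lower, with *Gusb* alone or the median gene of each column. IFNAR-/- minus TLR7-/- held 3, 1 with *Actb* alone, *Gusb* alone or the median log2 response, and 2 (1 each way) with the median gene of each column. IFNAR-/- minus wild type held 3, 1 with *Actb* alone or the median log2 response, and 2 with the median gene of each column. Plate-wide shares for these contrasts were counted on the main scaling only. A change of reference shifts the difference of every plate gene by the same amount, so these moved counts are not read as particular to the subunit genes. Over all 84 genes, the 43 past 2-fold in wild type were 23 at 3-fold, the 7 in TLR7-/- were 16 at 1.5-fold and 2 at 3-fold, and the 47 in IFNAR-/- were 31 with the median log2 response and 14 with TLR7-/- Mock. *Actb* alone, *Gusb* alone, the median log2 response list counts by scaling and sums without the first wells were chosen after seeing the data.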

Other observations

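The subunit genes were also set against the inhibitor genes within each column, where the reference genes cancel. This comparison was chosen after the values were seen. By signed response, from the highest, *Nfkbia* ranked 73 of 77 measured genes in wild type (log2 -1.57), 66 of 78 in TLR7-/- and 45 of 69 in IFNAR-/-. A late rank thus does not mean a small change. *Nfkbib* ranked 64, 51 and 36 in the same order. A signed response above that of *Nfkbia* was therefore the common case on the plate in each strain, and is not particular to the subunit genes. *Nfkb1* read 5.70 cycles later than *Nfkbia*, the IkB-alpha gene, in wild-type Mock and 1.80 cycles later in wild-type R848, which is a response larger by 3.90 log2 units. The same difference in response was 1.20 in TLR7-/- and 2.90 in IFNAR-/-. *Rela* exceeded *Nfkbia* in response by 1.95, 0.80 and 1.40 log2 units in wild type, TLR7-/- and IFNAR-/-, and *Nfkb2* by 1.10, 0.70 and 1.10. *Rel* exceeded it by 2.10 in wild type and 0.40 in TLR7-/-, and its gap to *Nfkbia* was 6.60 cycles in both columns of IFNAR-/-. Against *Nfkbib*, the IkB-beta gene, *Nfkb1* was larger in response by 3.10, 0.90 and 2.40, *Rela* by 1.15, 0.50 and 0.90, and *Nfkb2* by 0.30, 0.40 and 0.60. *Rel* was larger than *Nfkbib* by 1.3 in wild type and 0.10 in TLR7-/-, and smaller in IFNAR-/- (-0.50). These are single values without replicate error, and none was tested.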
